A study of Homo sapiens with 2 samples.

Results

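BCL2 family proteins decide whether a cell commits to the mitochondrial pathway of death, and 8 of their genes were examined for PRDM1 binding in U266, an established human multiple myeloma line. PRDM1 (BLIMP-1) is a zinc finger transcription factor that represses B cell genes as plasma cells form. Of the 8 genes, 4 encode survival proteins (BCL2, MCL1, BCL2L1 and BCL2A1) and 4 encode death proteins of the BH3-only class (BCL2L11, BMF, PMAIP1 and BIK). The members were peaks whose summit lay inside a gene body or within 50 kb of it, which took in 8 of the 9669 peaks in the authors' complete list. No peak was shared by 2 of the genes. The genes were chosen by position and name and not by peak height.

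PRDM1 and input libraries were compared, both from U266 cells with no treatment named in the labels, namely 1 library of chromatin immunoprecipitated with the rabbit monoclonal PRDM1 antibody C14A4 and 1 library of input DNA without antibody. The PRDM1 library kept 7854466 tags and the input 8556458 after duplicates were removed, so a fragment length of 200 bp held 0.634 input tags at the genome mean. There was no replicate, so all intervals below cover counting error only. The labels call the line a plasma cell lymphoma, and only 1 line was analysed here. Peak lists carry no marker genes against which that label could be checked. Coordinates are those of the deposited lists, given as GRCh37.

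Survival members of the family hold the pore-forming proteins of the mitochondrial membrane in check by binding them and their activators. BH3-only proteins carry a single short helix that occupies the groove of the survival proteins and so frees or activates the pore formers. Plasma cells and myeloma cells are known to depend on survival proteins of this family, MCL1 above all, and drugs that block BCL2 have been studied in myeloma.

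PRDM1 peaks lay near 5 of the 8 genes, against 28.6% of all genome windows of 120 kb that held a peak of the complete list. The width of 120 kb is the median of the 8 gene windows, which spanned 105 to 160 kb for the 7 genes other than BCL2 and 296 kb for BCL2. Of the 296 kb windows of the genome, 51.5% held a peak. At a false discovery rate (FDR) of at most 5%, 3 genes had a peak (BCL2, BCL2L11 and BMF), and 14% of the 120 kb windows did. In the authors' filtered list, which asks for 50 tags or more besides that FDR, 2 genes had a peak (BCL2 and BMF), against 3.38% of 120 kb windows and 7.71% of 296 kb windows. These shares are for windows anywhere in the genome and not for windows around genes. They therefore cannot show whether a count above them is particular to this family.

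**Figure D1:**
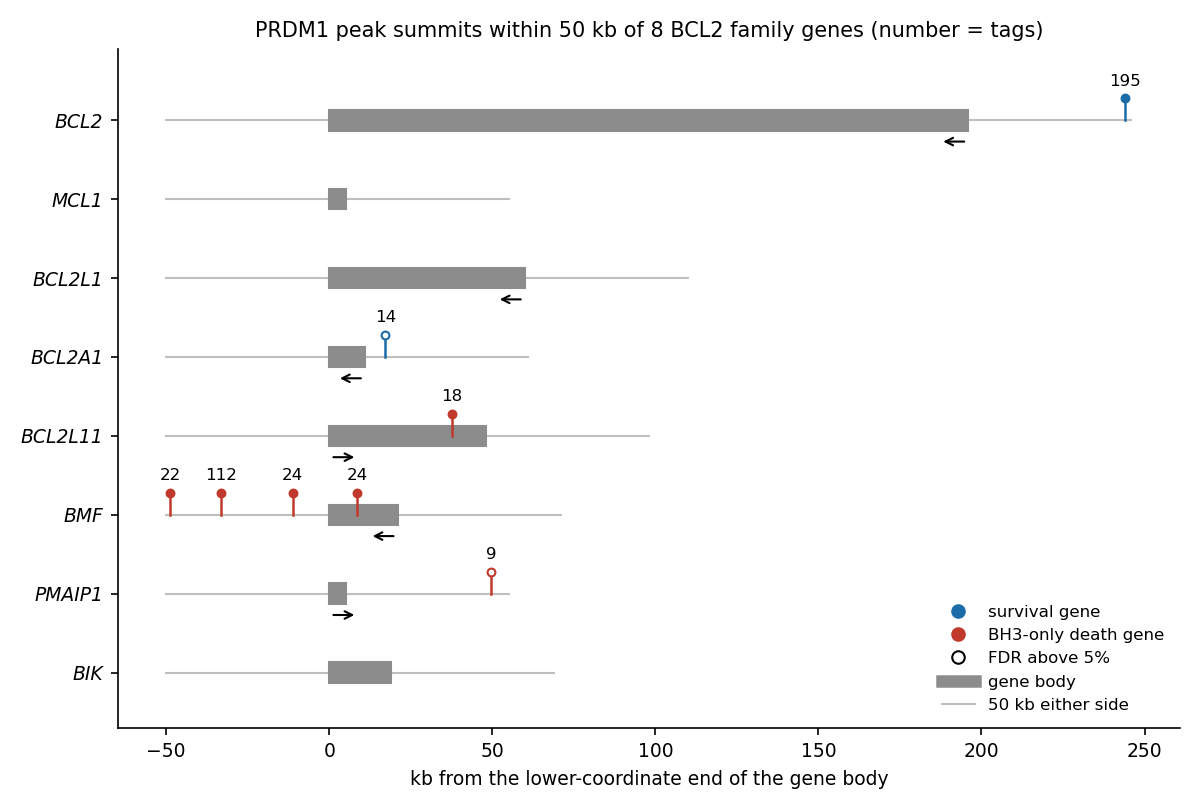
PRDM1 peak summits (pins, with the number of tags) around the 8 genes, in kb from the lower-coordinate end of each gene body (grey box); the thin line reaches 50 kb to either side, arrows show the direction of transcription where the RefSeq table gave it, and open pins have an FDR above 5%. BMF has 4 peaks of 22, 112, 24 and 24 tags, BCL2 has 1 peak of 195 tags close to the edge of its window, and MCL1, BCL2L1 and BIK have none.

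The 4 survival genes had 2 peaks over 672 kb of windows, 2.98 per Mb, and the 4 death genes had 6 over 493 kb, 12.2 per Mb. BMF alone gave 4 of these 6, and the other 3 death genes had 2 peaks over 372 kb, 5.38 per Mb. The complete list had 3.3 peaks per Mb between the first and last peak of each chromosome. Tags in the peaks came to 209 in each of the 2 groups, because the single BCL2 peak held 195. No test of the difference between the groups was made.

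BCL2, the founding survival gene of the family, had 1 peak, and it was the strongest of the 8. It lay on chromosome 18 from 61033867 to 61035938, upstream of the gene, with its summit 48 kb before the 5′ end. This region of 2072 bp held 195 PRDM1 tags, where the input predicted 6.57 tags after scaling. Tags over expected is the ratio of these numbers, with PRDM1 tags scaled to the input library, and here it was 32.3 (95% Poisson interval 27.9 to 37.1). The same ratio had a median of 5.54 and quartiles of 4.8 and 6.84 over the complete list. In that list of 9669 the BCL2 peak stood 15th by score, 41st by tags and 6th by the deposited fold at the summit, which was 140.4. Its deposited FDR was 0%. The recovered summit height was 89 overlapping fragments. The background solved from the score equalled the genome mean, as it also did for the peaks at BCL2L11 and PMAIP1. This was the lowest value among the 8 peaks, and local input tags were not counted directly.

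The BCL2 peak lay so near the edge of the 50 kb window that a limit of 20 kb left the gene without any peak. In RefSeq gene order the next protein-coding gene on that side of BCL2 is KDSR, an enzyme of sphingolipid synthesis, followed by VPS4B, a protein of the endosomal sorting machinery. The starts of KDSR and VPS4B were not placed, so how near the peak lies to either is not known here. Whether the peak bears on BCL2 or on these genes was not tested. The BCL2 gene body itself, 196 kb long, held no peak of the complete list.

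BCL2A1 encodes BFL-1, a short-lived survival protein induced by NF-kB in activated B cells, and it had 1 weak peak. The peak lay on chromosome 15 from 80269853 to 80270387, with its summit 6.19 kb upstream of the 5′ end. Of the member summits it was the closest to the 5′ end of its own gene, and starts of neighbouring genes were not placed. It held 14 tags against 2.67 expected, a ratio of 5.61 (95% Poisson interval 3.07 to 9.41), which is close to the list's median. Its FDR of 6.99% was above the 5% limit. Of all peaks of 12 to 14 tags, 16.4% had an FDR of at most 5%.

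The promoter of BCL2A1 is shown because it was the only member promoter in the RefSeq table with letters of either motif searched. AGNGAAAG was taken as a core of the PRDM1 type, on both strands, where N is any base. The core of the interferon response element, a pair of GAAA with any 2 bases between them, was searched in the same way. The sequence below is the 250 bases before the gene's start, minus strand of GRCh38.p14 at chr15:79971197-79971446, with both matches in capitals. The first of 2 listed BMF promoters and the BCL2 promoter are set beside it, because these 2 genes had the strong peaks. They are from the minus strand at chr15:40108880-40109129 and chr18:63319770-63320019. The BMF promoter not shown held neither motif.
BCL2A1: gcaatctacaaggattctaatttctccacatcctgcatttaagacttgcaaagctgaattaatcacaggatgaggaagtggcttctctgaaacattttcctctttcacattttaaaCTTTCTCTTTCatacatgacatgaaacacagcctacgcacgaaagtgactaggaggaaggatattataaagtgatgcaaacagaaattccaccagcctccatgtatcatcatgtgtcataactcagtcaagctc
BMF: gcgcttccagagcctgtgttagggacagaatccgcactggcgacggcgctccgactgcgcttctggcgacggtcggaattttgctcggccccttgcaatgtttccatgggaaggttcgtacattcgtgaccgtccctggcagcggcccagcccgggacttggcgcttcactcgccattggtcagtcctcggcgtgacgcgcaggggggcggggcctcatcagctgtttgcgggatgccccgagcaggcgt
BCL2: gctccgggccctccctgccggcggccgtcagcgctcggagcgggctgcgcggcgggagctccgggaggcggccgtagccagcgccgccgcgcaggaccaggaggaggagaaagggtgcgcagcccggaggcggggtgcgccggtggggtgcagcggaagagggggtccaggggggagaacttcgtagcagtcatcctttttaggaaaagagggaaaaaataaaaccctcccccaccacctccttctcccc
The 2 matches in BCL2A1 overlap, lie on the strand opposite to the one printed, and begin 134 and 133 bases before the start. No match was found in the BMF and BCL2 sequences, which says only that these letters are not in those windows. Over all 35116 promoters in the table, 7.99% held AGNGAAAG and 3.57% held the interferon response core. The table held 8 promoters of 6 member genes (all but MCL1 and BIK), so 1 of 8 had each motif. No peak summit lay within 5 kb of the BCL2A1 start, so the letters and the peak are in different places.

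MCL1, a survival protein with a very short half-life, had no peak within 50 kb of its body of 5 kb. The nearest peak was 90 kb away, on chromosome 1 from 150641546 to 150644347, and was among the filtered ones with 75 tags and 5.67 times the expected number. BCL2L1, which encodes BCL-XL, had no peak within 100 kb. Its nearest peak was 112 kb from the gene body, with 16 tags and an FDR of 39.62%, and its nearest filtered peak was 122 kb away. Of genome windows as wide as that of BCL2L1, 160 kb, 35.1% held a peak, and for the 105 kb of MCL1 it was 25.5%, so an empty window was the more common outcome. The weakest peaks in the list held 9 tags, and binding below that was not detectable at this depth.

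BMF had the most peaks of the 8 genes, 4 in its window of 121 kb, and all 4 had an FDR of at most 5%. BMF is a BH3-only protein that is held on the cytoskeleton and released when a cell loses attachment or is stressed. Of the 120 kb windows of the genome, 0.573% held 4 or more summits, a count that was compared after the number at BMF was seen. Chromosome 15 was dense in peaks as a whole, with 5.04 per Mb against 3.3 over all chromosomes, and 1.33% of its windows of 121 kb held 4 or more. The 4 summits were spread over 57.3 kb, with 15.6, 21.8 and 19.8 kb between neighbours, so they were separate regions and not pieces of 1 broad peak.

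Among the BMF peaks, 1 was strong by tags, and the other 3 were alike and held fewer. The strong peak lay on chromosome 15 from 40345435 to 40347661, with its summit 33.1 kb beyond the 3′ end of the gene. It held 112 tags against 18.7 expected, a ratio of 6.52 (95% Poisson interval 5.37 to 7.85), with an FDR of 0% and a fold of 22 at the summit. This is more tags than 98.2% of all peaks hold, but its ratio lies between the complete list's median of 5.54 and upper quartile of 6.84. Over the filtered peaks alone the ratio had a median of 10.4 and a lower quartile of 7, above the value here. Its input background was 2.65 times the genome mean and its width 2227 bp, where the complete list had medians of 1.26 times and 724 bp. The part of either in the ratio was not tested.

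The other 3 BMF peaks held 22, 24 and 24 tags, above the complete list's median of 15. The farthest, on chromosome 15 from 40331079 to 40332037, had its summit 48.7 kb beyond the 3′ end and held 4.8 times the expected tags (95% interval 3.01 to 7.26, FDR 2%). The peak from 40368247 to 40369159 had its summit 11.2 kb beyond the 3′ end and a ratio of 6.5 (4.16 to 9.67, FDR 0.27%). The peak from 40388184 to 40388950 lay inside the gene body, 12.4 kb from the 5′ end and 8.58 kb from the 3′ end, with a ratio of 4.77 (3.06 to 7.1, FDR 1.02%). The ratios of all 4 BMF peaks had overlapping intervals. In RefSeq gene order the next protein-coding genes on the 3′ side of BMF are SRP14, a subunit of the signal recognition particle, and EIF2AK4, the amino acid sensing kinase GCN2. The starts of SRP14 and EIF2AK4 were not placed, so how near these peaks lie to either is not known here. Whether the 3 peaks on that side bear on BMF or on these genes was not tested.

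**Figure D2:**
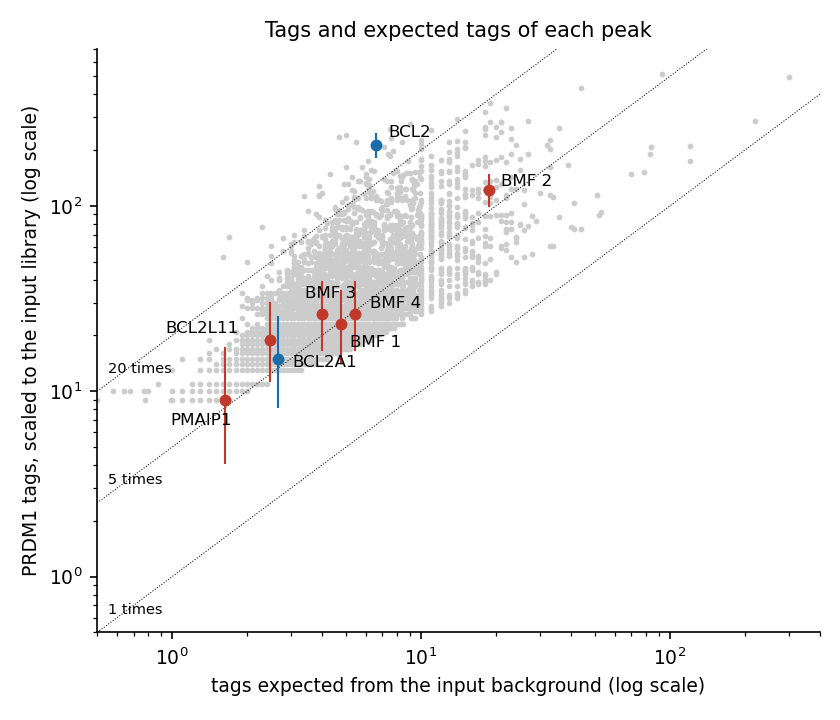
PRDM1 tags scaled to the input library against the tags expected from the input, both on log scales, for the 8 peaks near survival genes (blue) and death genes (red) with 95% Poisson bars, and for the other peaks of the complete list (grey). BCL2 lies above the line of 20 times the expected tags, and the other 7 peaks lie between 4.77 and 7.7 times.

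BCL2L11 encodes BIM, which binds all survival proteins of the family and takes part in the removal of activated lymphocytes. It had 1 peak inside the gene body, on chromosome 2 from 111915277 to 111916055, with its summit 37.6 kb from the 5′ end and 10.4 kb before the 3′ end. The peak held 18 tags against 2.47 expected, a ratio of 7.7 (95% Poisson interval 4.56 to 12.2), above the upper quartile of the complete list. Its FDR was 0.45%. With 18 tags it fell below the authors' minimum of 50. The nearest filtered peak was 1470 kb away.

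PMAIP1, which encodes NOXA, a BH3-only protein that neutralises MCL1, had 1 peak at the lowest end of the list. It lay on chromosome 18 from 57616358 to 57616872, 44.7 kb beyond the 3′ end, with 9 tags where 1.63 were expected (ratio 5.51, 95% Poisson interval 2.52 to 10.5). Its FDR was 47.15%, and 2.54% of all peaks scored lower. BIK, a BH3-only protein of the endoplasmic reticulum, had none. The nearest peak to BIK was 52.4 kb away with 22 tags, 2.71 times the expected number and an FDR of 48.54%. The nearest filtered peaks were 3080 kb from PMAIP1 and 1030 kb from BIK.

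**Figure D3:**
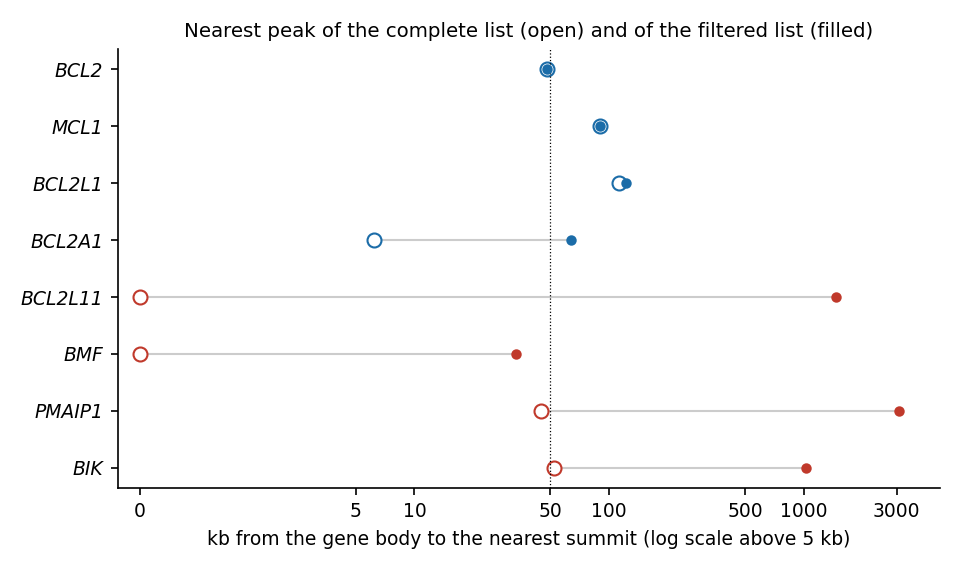
Distance in kb from each gene body to the nearest summit of the complete list (open circles) and of the filtered list (filled circles), on an axis that is linear up to 5 kb and logarithmic above; the dotted line is the limit of 50 kb. For BCL2 and MCL1 both circles coincide, at 48 and 90 kb, whereas the nearest filtered peak of BCL2L11, PMAIP1 and BIK is over 1000 kb away.

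The summits were set against the 5′ end of each member gene only, and the starts of neighbouring genes were not placed. For the 6 genes whose strand the RefSeq table gave, 0 had a summit within 5 kb of the 5′ end, 1 within 10 kb (BCL2A1) and 2 within 20 kb (BCL2A1 and BMF). Of all genome windows of 10 kb, which is 5 kb to either side, 3.13% held a summit, so 0 of 6 is near the background. By place, 2 peaks lay in gene bodies (BMF and BCL2L11), 2 upstream (BCL2 and BCL2A1) and 4 downstream (3 at BMF and 1 at PMAIP1). Both peaks of survival genes were upstream, and none of the 6 peaks of death genes was, but 4 of these 6 belong to BMF. The share of peaks upstream of genes in general was not counted, and the difference between the groups was not tested.

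Of the 8 peaks, 6 had an FDR of at most 5%, against 43.5% of the complete list, and 2 were in the filtered list, against 9.17%. As 4 of the 6 belong to BMF, they share a region and are not independent of each other. Without BMF, 2 of 4 peaks had such an FDR and 1 of 4 was filtered. The 8 peaks had a median of 23 tags (9 to 195), where the list's median was 15. Their median ratio of tags over expected was 6.05 (4.77 to 32.3), where the list's was 5.54. Of the 8, 6 held fewer than 25 tags and 2 held 100 or more. Those 2, at BCL2 and BMF, are among 230 peaks of at least 100 tags in the complete list.

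**Figure D4:**
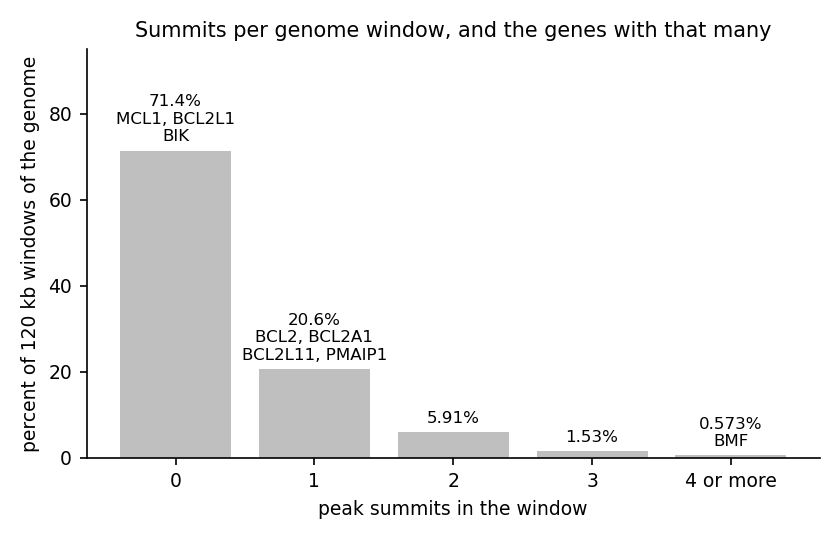
Percent of 120 kb windows of the genome (bars) by the number of complete-list summits they hold, with the names of the genes that have that many in their own windows, which are 105 to 296 kb wide. Windows with no summit make up 71.4%, where MCL1, BCL2L1 and BIK stand, and windows with 4 or more make up 0.573%, where BMF stands.

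Peaks just outside the limit were as strong as some inside it. On the inside, the BMF peak at 48.7 kb held 22 tags and the BCL2 peak at 48 kb held 195. On the outside, a peak 51.1 kb beyond the 3′ side of BCL2L11 held 30 tags, 15.7 times the expected number (95% Poisson interval 10.6 to 22.4), with an FDR of 0%. A filtered peak 64.1 kb from BCL2A1, on its 3′ side, held 151 tags (16.1 times, 13.6 to 18.8) and spanned 80188256 to 80189532 of chromosome 15. A weaker peak, not in the filtered list, lay 80.3 kb from BCL2 with 13 tags and an FDR of 3.45%.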

How the data were processed

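Chromatin of U266 cells was sequenced as 1 PRDM1 library and 1 input library. Per the submitters' processing notes, the tools included MACS 1.4, Bowtie 0.12.7 and CASAVA 1.8.2. Peaks were called with MACS 1.4.1 on merged alignments with 1 tag kept per position, a p cutoff of 1e-05 and local input windows of 1000 and 10000 bp, per the file headers. The sources used here name no genome build. No peak ran past a GRCh37 chromosome end and 53 ran past one of GRCh38, with lengths typed from general knowledge. Gene bodies are in whole kb of GRCh37 and were within 1 kb of the RefSeq lengths.

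The deposited tag counts are raw counts of PRDM1 tags in a peak. The deposited score is 10 times the −log10 of the Poisson p, per the file headers. The deposited fold is a ratio of summit height to local background, and the deposited FDR is in percent. Each is the authors' value. All 887 filtered peaks were those of the complete list with 50 tags or more and an FDR not above 5%.

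Expected tags were solved from score and tags, with tags multiplied by 1.09 (input tags over PRDM1 tags) and rounded down. Fold times expected tags per 200 bp was then whole, within 0.06, for 98.7% of 9667 peaks; 2 peaks of fixed score were left out. In simulated peaks 100% of 478 backgrounds were recovered within 1%, which checks the solving only. Windows were tiled from the first to the last summit of each chromosome. RefSeq tables of GRCh38.p14 gave strand, gene order and promoters (250 bases before to 50 after a start), and no GRCh38 position was set against a peak. All 8 members and each of their peaks are named. Members and lists were chosen with earlier results of these data known. The other BCL2 family and caspase genes listed for counting were not placed, because no annotation of GRCh37 was used here. Python 3.11.15, scipy 1.17.1 and bedtools 2.31.1 were used.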

Additional observations from a re-analysis of the deposited data

How the results depend on the processing

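With 8 peaks near 5 genes as reported, a distance of 10 kb gave 3 peaks near 3 genes, 20 kb gave 4 peaks near 3 genes, and 100 kb gave 13 peaks near 7 genes, by construction of the limit. An FDR of at most 5% left 6 peaks near 3 genes, and adding 25 or 50 tags left 2 peaks near 2 genes. Any base or the midpoint of a peak in place of its summit gave 8 peaks and 5 genes. Distances of 48 and 52 kb, chosen after seeing the data, gave 6 peaks near 4 genes and 9 near 5. Leaving out BMF, also chosen then, gave 4 peaks. The 2 member peaks in the filtered list were the same number at overlaps of 1 bp, 50% and reciprocal 50%. The median ratio of tags over expected, 6.05, was again 6.05 after rounding to the nearest tag and 6.6 with unscaled tags. Of 16 single values, 15 stayed within their counting interval, and the BCL2 peak went from 32.3 to 40.4 with unscaled tags. Window shares on a gene's own chromosome were lower than the genome's for BCL2 (48.9% against 51.5%) and PMAIP1 (22.3% against 25.5%). They were higher for the other 6 genes, by most at BMF (42.2% against 28.8%). The motif counts were the same in the upstream bases alone, a search chosen after seeing the data.

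No paired analysis was possible because PRDM1 and input had a single library each. At 9 to 11 tags, 0.445% of peaks had an FDR of at most 5%, and at 12 to 14 tags 16.4% did, so peaks this small seldom passed that limit. At 15 to 24 tags, which took in 4 member peaks, 58.9% passed it.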
